A study of Homo sapiens with 9 samples.

Results

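The collagen chains are the genes that encode the polypeptides of collagen. They were taken as the protein-coding genes of GENCODE release 29 whose symbol is COL, a number, A and a number. GENCODE lists 44 such genes. No minimum level was set beyond a row in the count table, where no row totals fewer than 7 counts. The count table of this series had a row for 33 of them among its 26186 genes, and the other 11 (COL1A2, COL3A1, COL6A5, COL9A1, COL10A1, COL15A1, COL19A1, COL20A1, COL22A1, COL23A1 and COL25A1) are not analysed here. Of the 33 rows, 22 held enough counts to be tested and 11 did not.

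The libraries are polyadenylated RNA of MCF10A, a non-tumorigenic line of human mammary epithelial cells, grown in medium with 5% horse serum, insulin, cholera toxin, EGF and hydrocortisone. Cells were infected with pLKO.1 lentivirus that expressed a short hairpin RNA, selected with puromycin at 2 µg/mL from hour 24, and harvested on day 3. There were 3 groups of 3 libraries: shCHAF1B-1 and shCHAF1B-2, which carry different hairpins against CHAF1B, and shGFP, which carries a hairpin against green fluorescent protein. CHAF1B is a subunit of chromatin assembly factor 1 (CAF-1), which loads histones H3 and H4 onto newly replicated DNA, and the series asks how its suppression alters RNA levels. All groups share the parental line, the viral vector and the drug, and the knockdown rests on 1 cell line. The labels do not say that the 3 libraries of a group came from separate cultures, so p-values measure the spread between these libraries, which may be technical.

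Collagens are extracellular or membrane-anchored proteins whose chains wind around each other into a helix built from repeats of glycine and other residues. Fibrillar collagens form the cable-like fibrils of connective tissue, collagen IV forms the sheet of basement membranes, and further types link, anchor or border these structures. Mammary basal epithelial cells rest on a basement membrane, to which they attach through hemidesmosomes that contain the transmembrane collagen XVII, and they are not the main makers of the fibrillar collagens, which come largely from fibroblasts.

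CHAF1B itself, the targeted gene, was measured at 2.56, 3.88 and 3.43 CPM in the shCHAF1B-1 libraries, 2.66, 3.88 and 3.07 CPM in the shCHAF1B-2 libraries and 35.2, 41.0 and 36.8 CPM in the shGFP libraries. Its log2 fold change against shGFP was -3.50 (SE 0.133, adjusted p = 1.42e-10) with shCHAF1B-1 and -3.55 (SE 0.136, adjusted p = 1.61e-10) with shCHAF1B-2 in edgeR's quasi-likelihood test with Benjamini-Hochberg adjustment, the test used throughout. Levels are counts scaled to the library total and with TMM (CPM), and a gene passed at an adjusted p under 0.05. Library totals lay between 24339914 and 31819468 counts, so that 3 counts corresponded to between 0.0962 and 0.126 CPM, a floor that covers counting error only.

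The libraries were checked against 4 marker lists. All 10 markers of mammary basal epithelium were present, with a summed level of 10260 to 11400 CPM in the knockdown libraries and 11970 to 13000 CPM in the shGFP libraries. The sum is dominated by KRT5. In the mean of both hairpins 3 of the 10 were higher and 5 lower, beside 29.2% and 27.7% of all tested genes. KRT5 (keratin 5) averaged 4082 and 4039 CPM with the CHAF1B hairpins against 7264 CPM with shGFP (-0.84, adjusted p = 2.51e-09), KRT17 (keratin 17) 399 and 386 CPM with the CHAF1B hairpins against 879.7 CPM with shGFP (-1.16, adjusted p = 3.97e-09) and LAMB3, a laminin chain of basal epithelium, 2789 and 2575 CPM with the CHAF1B hairpins against 1003 CPM with shGFP (1.42, adjusted p = 3.96e-11). SFN and CDH1 were higher too, and KRT14, EPCAM and CDH3 lower. A B lymphocyte list (11 of 12 markers with a row) summed to 226 CPM in shCHAF1B-1 replicate 3, against 1.58 to 2.63 CPM in the other 8 libraries, and results that rest on that library are given with and without it. Fibroblast markers (9 of 12 with a row) summed to between 260 and 299 CPM in the knockdown libraries and between 259 and 298 CPM in the shGFP libraries. Most of that sum was FBLN1, a gene of a matrix glycoprotein, at 216 and 209.5 CPM with the CHAF1B hairpins and 230.0 CPM with shGFP, while the fibroblast receptor gene PDGFRA averaged 0.0238 and 0.0969 CPM with the CHAF1B hairpins and 0.0119 CPM with shGFP. Of the 4 fibroblast markers tested, FAP was higher and MFAP5 lower in the mean of both hairpins, and MFAP5 passed the count filter through the shGFP libraries alone. Endothelial markers (9 of 10 with a row) summed to 17.01 to 19.84 CPM in the knockdown libraries, against 7.40 to 8.84 CPM in the shGFP libraries. In the mean of both hairpins PECAM1, EGFL7 and TEK were higher among the 5 tested, beside 29.2% of all tested genes. The part of these other cell-type genes in the collagen results was not tested.

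Collagen RNA as a whole was higher in the CHAF1B knockdown libraries. The collagen rows held 0.161% to 0.179% of all counts there, against 0.138% to 0.142% in the shGFP libraries. Divided by the length in kilobases of each gene's principal transcript (RPKM), the CPM of the 33 chains together summed to 300.3, 296 and 283 RPKM in the shCHAF1B-1 libraries, 285, 296 and 269.7 RPKM in the shCHAF1B-2 libraries and 218, 225 and 216 RPKM in the shGFP libraries. Every knockdown library lay above every shGFP library in this sum. In bulk RNA a change in the number of cells that express a chain and a change in the RNA per cell cannot be told apart, here and below.

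The class sums show where that RNA was. The 2 transmembrane chains summed to 178, 174 and 166 RPKM in the shCHAF1B-1 libraries, 168, 171 and 161 RPKM in the shCHAF1B-2 libraries and 122, 128 and 121 RPKM in the shGFP libraries. The 8 basement membrane chains summed to 91.2, 90.3 and 86.1 RPKM in the shCHAF1B-1 libraries, 88.2, 93.1 and 81.3 RPKM in the shCHAF1B-2 libraries and 72.1, 73.5 and 71.2 RPKM in the shGFP libraries. Collagen VI, with 4 rows, summed to 7.17, 6.84 and 6.52 RPKM in the shCHAF1B-1 libraries, 5.86, 6.94 and 6.07 RPKM in the shCHAF1B-2 libraries and 0.950, 0.831 and 0.765 RPKM in the shGFP libraries. These 3 classes were higher in every knockdown library. The 9 fibrillar chains summed to 4.81, 5.31 and 4.91 RPKM in the shCHAF1B-1 libraries, 4.52, 5.15 and 4.50 RPKM in the shCHAF1B-2 libraries and 3.42, 3.33 and 3.37 RPKM in the shGFP libraries, again with no overlap. The other 10 chains together summed to 19.5, 19.2 and 19.0 RPKM in the shCHAF1B-1 libraries, 18.8, 19.8 and 16.6 RPKM in the shCHAF1B-2 libraries and 19.9, 19.9 and 19.9 RPKM in the shGFP libraries, the reverse order by a small margin. As a share of all collagen RNA per length, collagen VI made up 2.33% ± 0.0454 with shCHAF1B-1 and 2.22% ± 0.149 with shCHAF1B-2, against 0.386% ± 0.0430 with shGFP (SD, n = 3 each).

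**Figure D1:**
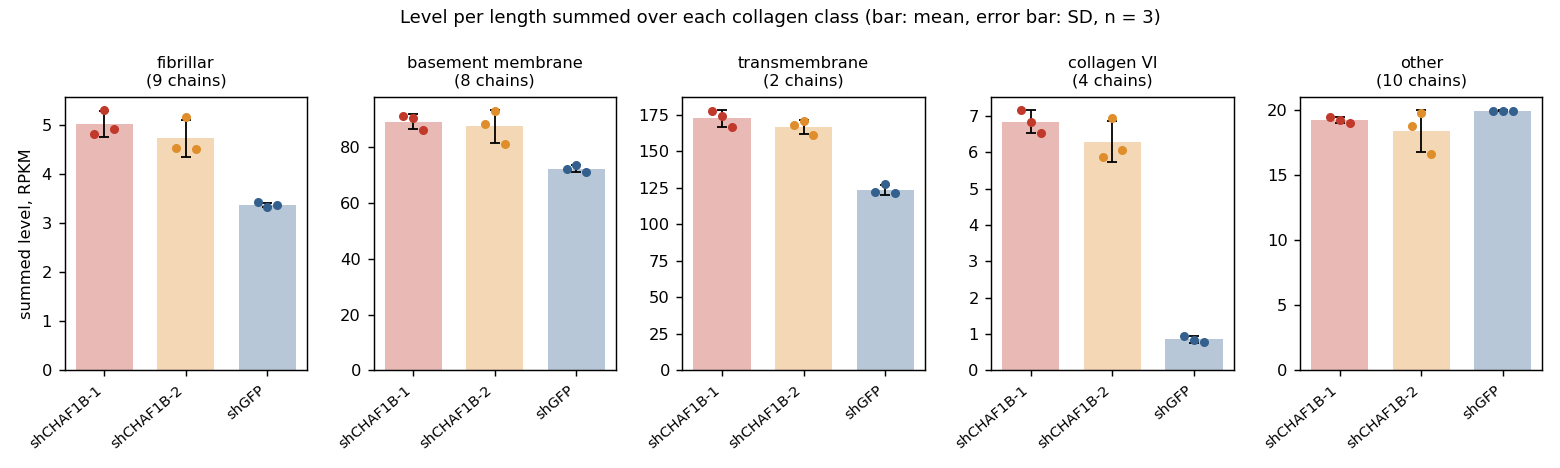
Level per length summed over the chains of each collagen class (RPKM, linear axes that start at 0 and differ between panels); bars are means, error bars SD, points the 3 libraries of each group. Collagen VI stands at 5.86 to 7.17 RPKM in the knockdown libraries and 0.765 to 0.950 RPKM in the shGFP libraries, while the other chains lie slightly lower with knockdown.

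Chain by chain, more collagen genes rose than fell. With shCHAF1B-1, 13 of the 22 tested chains were higher than with shGFP and 4 were lower, where 27.9% of all 16235 tested genes were higher and 25.2% lower. With shCHAF1B-2, 11 were higher and 6 lower, beside 26.7% and 24.6% of all tested genes. In both tests with the same sign, 11 chains were higher (COL1A1, COL2A1, COL4A5, COL4A6, COL6A1, COL6A3, COL7A1, COL13A1, COL16A1, COL17A1 and COL18A1) and 4 lower (COL4A4, COL8A1, COL12A1 and COL27A1), beside 23.8% and 20.8% of all genes. All 6 knockdown libraries lay above all 3 shGFP libraries for 11 chains (25.8% of all genes) and below them for 4 (22.7%). The share of chains that rose was thus above the background share and the share that fell was close to or below it; no test was made of that difference. For the mean of both hairpins, 13 chains were higher and 4 lower, beside 29.2% and 27.7% of all genes, with a median log2 fold change of 0.29 over the tested chains and -0.01 over all tested genes.

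These counts depend on what could be tested. COL4A3 reached the minimum count in all 3 shGFP libraries but in 1 of the 6 knockdown libraries, and COL5A3 and COL11A2 in all 6 knockdown libraries but in 2 of the 3 shGFP libraries, so the counts over the tested chains are descriptions. Of the other 19 tested chains, 12 were higher and 4 lower in the mean of both hairpins. The direction counts over all genes depend on scaling: 51.3% of all calls in the mean contrast were higher under TMM, and 40.2% when libraries were scaled to their totals alone (52.5% and 40.8% with shCHAF1B-1, 52.0% and 40.8% with shCHAF1B-2).

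**Figure D2:**
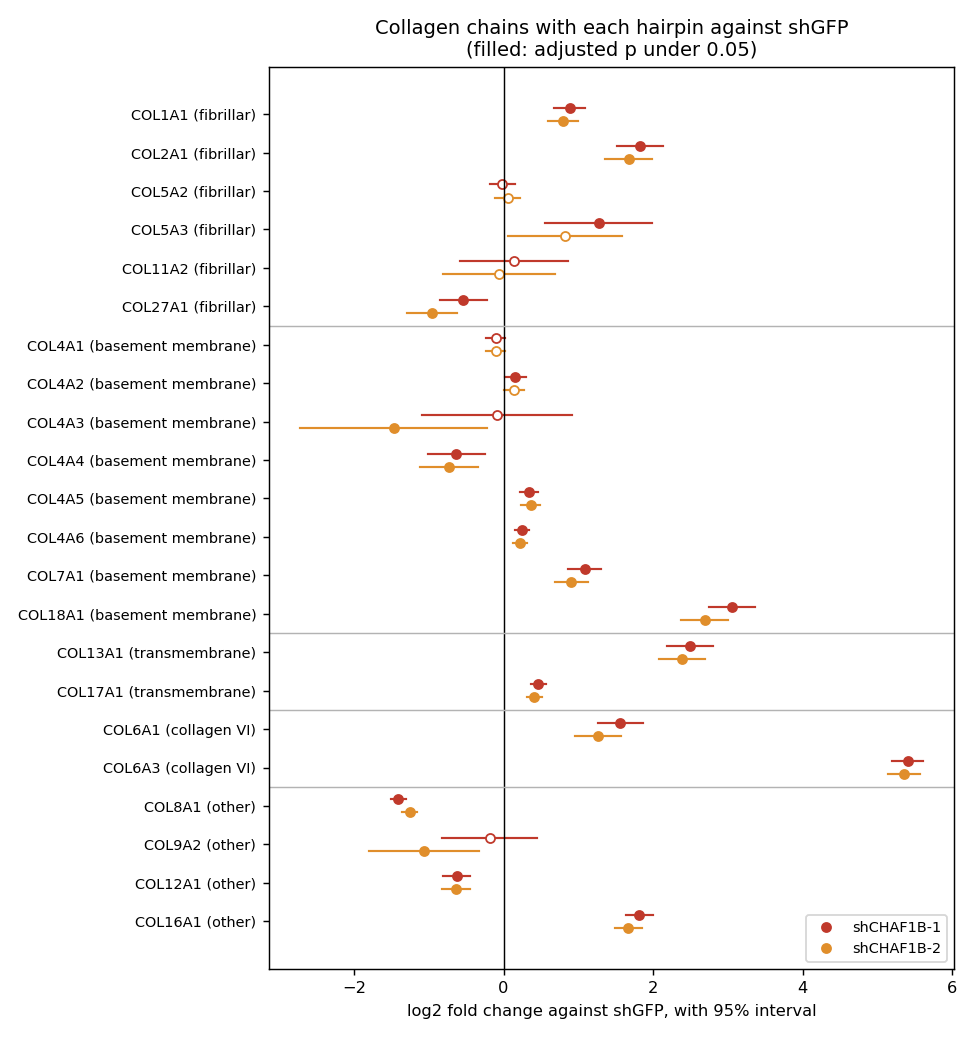
Log2 fold change of the 22 tested collagen chains against shGFP, with shCHAF1B-1 above shCHAF1B-2 in each row; bars are 95% intervals, filled points passed at an adjusted p under 0.05. COL6A3 stands farthest right at 5.40 and 5.35, and COL8A1 lies lowest among the chains that passed with both hairpins, at -1.41 and -1.26.

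The transmembrane collagens span the plasma membrane with their helical part outside the cell. COL17A1 (GRCh38 chromosome 10, 104031286 to 104085957, minus strand), the hemidesmosome chain also called BP180, was the most abundant collagen per length, at 167 RPKM in the knockdown libraries and 123 RPKM in the shGFP libraries. Its level was 994, 972 and 929.9 CPM in the shCHAF1B-1 libraries, 942, 953 and 902 CPM in the shCHAF1B-2 libraries and 692, 722 and 687 CPM in the shGFP libraries. Its log2 fold change was 0.46 (SE 0.0460, adjusted p = 1.73e-06) with shCHAF1B-1 and 0.41 (SE 0.0460, adjusted p = 5.57e-06) with shCHAF1B-2, so a moderate rise on a high level, with the groups well apart. Per length it made up 57.9% ± 0.219 of collagen RNA with shCHAF1B-1 and 57.8% ± 1.06 with shCHAF1B-2, against 55.9% ± 0.370 with shGFP (SD, n = 3 each). COL13A1 (GRCh38 chromosome 10, 69801867 to 69964275, plus strand), which clusters receptors at the neuromuscular junction and sits at cell contacts elsewhere, had 9.31, 9.59 and 9.19 CPM in the shCHAF1B-1 libraries, 7.49, 9.89 and 8.66 CPM in the shCHAF1B-2 libraries and 1.58, 2.01 and 1.40 CPM in the shGFP libraries. That is a log2 fold change of 2.49 (SE 0.142, adjusted p = 7.34e-09) with shCHAF1B-1 and 2.38 (SE 0.143, adjusted p = 1.43e-08) with shCHAF1B-2, and every knockdown library was above every shGFP library.

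The bases just upstream of COL17A1 are shown because this 1 gene supplies most of the collagen RNA. Here and below, upstream sequence is from RefSeq on GRCh38.p14, 5′ to 3′ on the strand given, and capitals mark matches on either strand to 4 motifs: the TATA box with the letters TATAAA, the CCAAT box with those of its name, the GC box with the letters GGGCGG and the AP-1 site with the letters TGANTCA. Matches overlapped each other in no printed stretch. Starts are those of RefSeq, and the GENCODE extents of COL17A1, COL4A1, COL4A2, COL4A6 and COL6A3 reach into the stretches shown.
COL17A1, chr10:104085881-104086130, minus strand: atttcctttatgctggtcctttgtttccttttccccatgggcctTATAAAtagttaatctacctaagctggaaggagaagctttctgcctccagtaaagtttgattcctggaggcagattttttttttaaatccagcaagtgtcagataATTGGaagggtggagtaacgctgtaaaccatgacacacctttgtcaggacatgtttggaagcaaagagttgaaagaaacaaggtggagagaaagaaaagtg
The TATAAA match starts 206 bases before the RefSeq start site and the CCAAT match, on the opposite strand, 101 bases before it. Of 35116 RefSeq promoter windows of 300 bases (250 before the start and 50 after it), 11.5% hold TATAAA, 34.6% CCAAT, 45.0% GGGCGG and 7.71% TGANTCA. RefSeq gave 35 windows for 26 of the 33 collagen genes, and 6, 10, 22 and 0 of these hold the 4 motifs in that order.

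Basement membrane collagens formed the next most abundant class per length, and collagen IV its core. Collagen IV chains are encoded in head-to-head pairs that are transcribed away from each other: COL4A1 with COL4A2 on chromosome 13, COL4A3 with COL4A4 on chromosome 2, and COL4A5 with COL4A6 on chromosome X. RefSeq starts lie 126 bases apart for the first pair, 418 for the second and 379 for the third. RefSeq gave a further start for COL4A6, and the start nearer to that of COL4A5 is used here. The window of the further start (chromosome X, 108438373 to 108438672) holds 1 GGGCGG match. The sequence between the starts is shown for the 2 abundant pairs, since each pair shares it as upstream region.
Between COL4A1 and COL4A2, chr13:110307158-110307283, plus strand: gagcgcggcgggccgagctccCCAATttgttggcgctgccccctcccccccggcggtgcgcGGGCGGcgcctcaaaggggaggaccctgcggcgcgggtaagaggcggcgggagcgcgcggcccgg
Upstream of COL4A5, chrX:108439588-108439837, plus strand: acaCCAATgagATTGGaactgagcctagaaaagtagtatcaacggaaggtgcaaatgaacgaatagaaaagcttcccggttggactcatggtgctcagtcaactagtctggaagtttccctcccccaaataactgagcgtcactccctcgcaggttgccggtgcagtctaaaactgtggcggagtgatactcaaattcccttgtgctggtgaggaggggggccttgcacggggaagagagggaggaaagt
Upstream of COL4A6, chrX:108439459-108439708, minus strand: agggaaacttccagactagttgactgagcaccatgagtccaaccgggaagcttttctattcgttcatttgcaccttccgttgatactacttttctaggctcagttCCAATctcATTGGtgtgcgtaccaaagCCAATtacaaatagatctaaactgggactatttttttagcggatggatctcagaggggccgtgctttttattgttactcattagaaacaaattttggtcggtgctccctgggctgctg
The interval of COL4A1 and COL4A2 holds a CCAAT and a GGGCGG match. The stretches upstream of COL4A5 and COL4A6 overlap, and hold 2 and 3 CCAAT matches on the strand written here or its reverse, with none of the other letters. The 2 matches upstream of COL4A5 lie in the overlap and are also 2 of the 3 upstream of COL4A6.

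The pair of COL4A1 and COL4A2, whose products join in the collagen IV of nearly all basement membranes, moved little. COL4A1 was measured at 48.2, 47.1 and 44.5 CPM in the shCHAF1B-1 libraries, 46.3, 49.1 and 44.4 CPM in the shCHAF1B-2 libraries and 51.9, 51.4 and 47.2 CPM in the shGFP libraries. Its log2 fold change was -0.11 (SE 0.0576, adjusted p = 0.141) with shCHAF1B-1 and -0.11 (SE 0.0580, adjusted p = 0.148) with shCHAF1B-2 and did not pass with either hairpin. COL4A2 was measured at 142, 129.5 and 121 CPM in the shCHAF1B-1 libraries, 125, 138 and 124 CPM in the shCHAF1B-2 libraries and 118, 122 and 111 CPM in the shGFP libraries. The log2 fold change was 0.16 (SE 0.0627, adjusted p = 0.0472) with shCHAF1B-1 and 0.14 (SE 0.0629, adjusted p = 0.0877) with shCHAF1B-2, and the ranges overlapped, with 121 CPM as the lowest value with knockdown and 122 CPM as the highest with shGFP. These small differences depended on the settings: COL4A1 passed with each hairpin under the library total alone (-0.19, adjusted p = 0.0114, with shCHAF1B-1 and -0.18, adjusted p = 0.0158, with shCHAF1B-2). It was lower in the mean of both hairpins under upper-quartile scaling (-0.14, adjusted p = 0.027), under the library total (-0.19, adjusted p = 0.00492) and without shGFP replicate 3 (-0.15, adjusted p = 0.0325). COL4A2 was lost with shCHAF1B-1 under the same scalings (adjusted p = 0.0822 and 0.34), with no filter (0.0641), with only the groups compared (0.0512) and without any of shCHAF1B-1 replicates 1 and 2, shCHAF1B-2 replicate 1 and shGFP replicates 1 and 3 (adjusted p between 0.0666 and 0.201). Its mean contrast passed (0.15, adjusted p = 0.0336) and was lost under upper-quartile scaling and the library total alone (adjusted p = 0.0726 and 0.311), and without any of shCHAF1B-1 replicate 1, shCHAF1B-2 replicate 2 and shGFP replicates 1 and 3 (adjusted p between 0.0594 and 0.154).

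The ratio within the pair, which does not depend on scaling between libraries, was less close. COL4A1 over COL4A2, per length, was 0.335, 0.357 and 0.359 in the shCHAF1B-1 libraries, 0.363, 0.350 and 0.353 in the shCHAF1B-2 libraries and 0.433, 0.412 and 0.416 in the shGFP libraries. Every knockdown library lay below every shGFP library in this ratio, which was not tested.

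COL4A5 and COL4A6, whose products form a collagen IV of skin and other epithelial basement membranes, were the most abundant of the class per length. COL4A5 had 179, 189 and 179 CPM in the shCHAF1B-1 libraries, 193, 196 and 167 CPM in the shCHAF1B-2 libraries and 140.0, 144 and 148 CPM in the shGFP libraries, a log2 fold change of 0.34 (SE 0.0585, adjusted p = 0.000244) with shCHAF1B-1 and 0.36 (SE 0.0586, adjusted p = 0.000151) with shCHAF1B-2. COL4A6 had 158, 160.1 and 154 CPM in the shCHAF1B-1 libraries, 156, 161 and 148 CPM in the shCHAF1B-2 libraries and 132, 135 and 133 CPM in the shGFP libraries, a log2 fold change of 0.24 (SE 0.0439, adjusted p = 0.000389) with shCHAF1B-1 and 0.22 (SE 0.0440, adjusted p = 0.000947) with shCHAF1B-2. Both rose modestly with both hairpins, with no overlap of the groups. Per length, COL4A5 over COL4A6 was 1.15, 1.21 and 1.19 in the shCHAF1B-1 libraries, 1.27, 1.25 and 1.15 in the shCHAF1B-2 libraries and 1.09, 1.09 and 1.14 in the shGFP libraries, slightly higher in every knockdown library. Which of the pair is the more abundant depends on the length used: COL4A5 ranked above COL4A6 by principal transcript and below it by the union of exons, a choice compared after the data had been seen.

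COL4A3 and COL4A4, whose products join that of COL4A5 in the glomerular basement membrane of the kidney, were present at low levels. COL4A4 had 1.79, 1.51 and 2.25 CPM in the shCHAF1B-1 libraries, 1.66, 1.88 and 1.60 CPM in the shCHAF1B-2 libraries and 3.31, 2.58 and 2.67 CPM in the shGFP libraries, and all knockdown libraries were below all shGFP libraries. The log2 fold change was -0.63 (SE 0.178, adjusted p = 0.00854) with shCHAF1B-1 and -0.73 (SE 0.182, adjusted p = 0.00422) with shCHAF1B-2. The call with shCHAF1B-1 was lost without shCHAF1B-1 replicate 2 (-0.49, adjusted p = 0.0504). COL4A3 had 5, 8 and 22 counts in the shCHAF1B-1 libraries, 4, 6 and 2 counts in the shCHAF1B-2 libraries and 11, 12 and 15 counts in the shGFP libraries, and the high shCHAF1B-1 value belongs to the library that also held B lymphocyte transcripts. With all libraries its log2 fold change was -0.09 (SE 0.464, adjusted p = 0.894) with shCHAF1B-1 and -1.47 (SE 0.580, adjusted p = 0.0485) with shCHAF1B-2, and -0.78 (adjusted p = 0.155) in the mean of both. Without shCHAF1B-1 replicate 3 the values were -0.97 (adjusted p = 0.0647), -1.47 (adjusted p = 0.00771) and -1.22 (adjusted p = 0.00683). The shCHAF1B-2 call was lost when any of the 3 shCHAF1B-2 or the 3 shGFP libraries was left out (adjusted p between 0.0549 and 0.145), with DESeq2 (0.0688) and with no filter (0.058). COL4A3 passed the count filter through the shGFP libraries alone. Its inclusion thus depended on its shGFP level, and its p-values are descriptions, not support for a fall.

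COL7A1 and COL18A1 are basement membrane collagens of other kinds, and both rose clearly. COL7A1, the chain of the anchoring fibrils that tie the epidermal basement membrane to the tissue beneath, had 68.0, 66.2 and 63.2 CPM in the shCHAF1B-1 libraries, 58.9, 67.9 and 47.3 CPM in the shCHAF1B-2 libraries and 33.2, 30.7 and 29.1 CPM in the shGFP libraries. Its log2 fold change was 1.09 (SE 0.102, adjusted p = 9.8e-07) with shCHAF1B-1 and 0.91 (SE 0.102, adjusted p = 6.36e-06) with shCHAF1B-2. COL18A1 (GRCh38 chromosome 21, 45405137 to 45513720, plus strand), a proteoglycan core whose end is released as endostatin, had 15.8, 13.2 and 13.6 CPM in the shCHAF1B-1 libraries, 10.7, 11.9 and 10.4 CPM in the shCHAF1B-2 libraries and 1.97, 1.90 and 1.26 CPM in the shGFP libraries. The log2 fold change of 3.06 (SE 0.141, adjusted p = 9.65e-10) with shCHAF1B-1 and 2.69 (SE 0.144, adjusted p = 4.63e-09) with shCHAF1B-2 was the highest in the class, and for both genes the groups did not overlap. COL18A1 shares 1401 exonic bases, 16.4% of its exon length, with SLC19A1 on the opposite strand, and the library kit does not mark strand, so reads there cannot be told apart. SLC19A1, a folate transporter, was lower in the mean of both hairpins (-0.28, adjusted p = 0.0117).

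**Figure D3:**
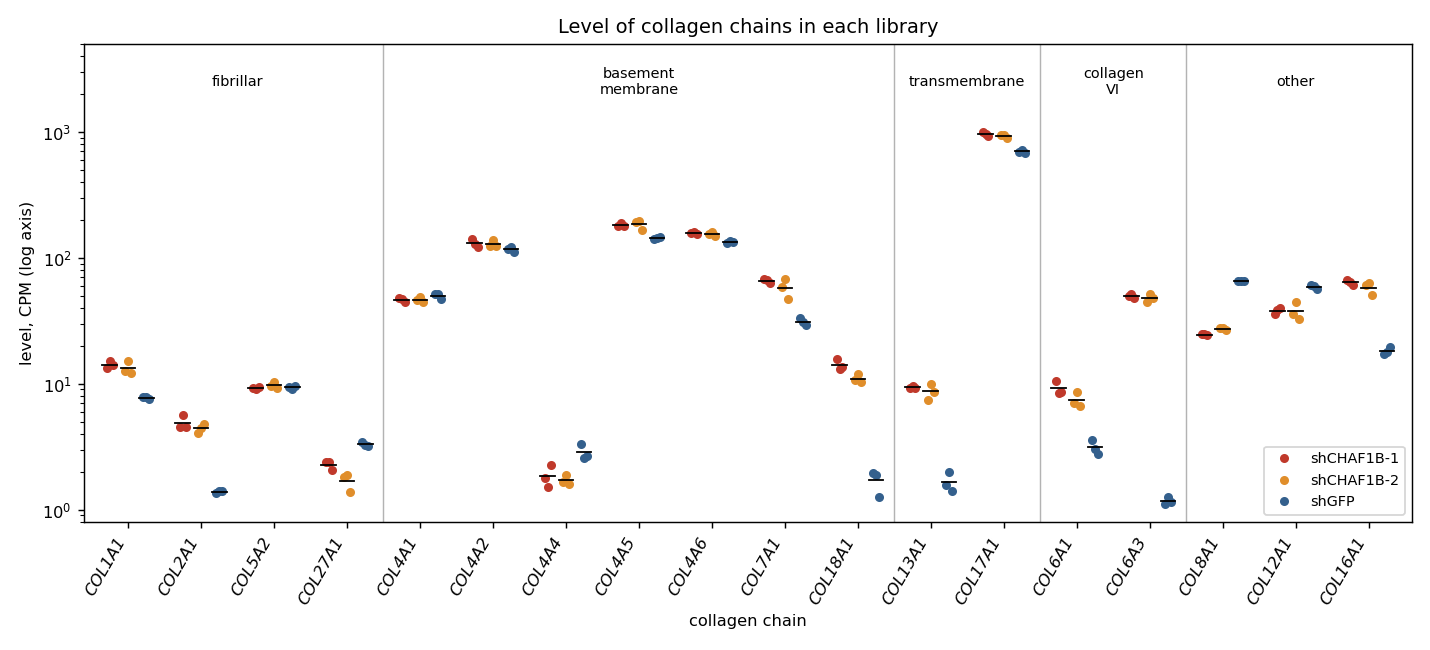
Level of the 18 collagen chains described with a value in every library (CPM, log axis), by class; points are libraries and black lines group means. COL17A1 lies between 687 and 994 CPM in every library, and COL6A3 stands at 44.9 to 52.0 CPM in the knockdown libraries and 1.12 to 1.25 CPM in the shGFP libraries.

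Collagen VI held the largest log2 fold change among the tested chains. Collagen VI is a microfibril built from COL6A1, COL6A2 and a further chain, most often COL6A3. COL6A3 (GRCh38 chromosome 2, 237324003 to 237414375, minus strand) had 50.2, 51.9 and 47.8 CPM in the shCHAF1B-1 libraries, 44.9, 52.0 and 48.1 CPM in the shCHAF1B-2 libraries and 1.12, 1.25 and 1.16 CPM in the shGFP libraries, and its raw counts in the same order were 1235, 1618 and 1212, then 1079, 1324 and 1144, then 29, 35 and 33. That is 42.3-fold higher with shCHAF1B-1 and 40.9-fold higher with shCHAF1B-2, with adjusted p of 1e-13 and 1.2e-13. Per length it was the chain of rank 8 among the 33 in the knockdown libraries and of rank 19 in the shGFP libraries. COL6A1 had 10.5, 8.49 and 8.67 CPM in the shCHAF1B-1 libraries, 7.07, 8.67 and 6.68 CPM in the shCHAF1B-2 libraries and 3.58, 3.01 and 2.77 CPM in the shGFP libraries, a log2 fold change of 1.56 (SE 0.138, adjusted p = 5.55e-07) with shCHAF1B-1 and 1.26 (SE 0.141, adjusted p = 5.57e-06) with shCHAF1B-2, also with no overlap.

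The chains of collagen VI did not move in proportion. COL6A3 over COL6A1, per length, was 1.89, 2.41 and 2.17 in the shCHAF1B-1 libraries, 2.502, 2.36 and 2.84 in the shCHAF1B-2 libraries and 0.123, 0.164 and 0.165 in the shGFP libraries. COL6A2, the other partner, had 1, 1 and 2 counts in the shCHAF1B-1 libraries, 1, 4 and 1 counts in the shCHAF1B-2 libraries and 0, 0 and 0 counts in the shGFP libraries, too few to be tested, and COL6A6, an alternative to COL6A3, had 0 to 3 counts per library. COL6A3 was thus in excess over COL6A1 in the knockdown libraries and COL6A1 over COL6A3 in the shGFP libraries, while COL6A2 was near 0 in every library. The stretch upstream of COL6A3 is shown because it precedes the chain with the largest change, and it holds none of the 4 motifs.
COL6A3, chr2:237414165-237414414, minus strand: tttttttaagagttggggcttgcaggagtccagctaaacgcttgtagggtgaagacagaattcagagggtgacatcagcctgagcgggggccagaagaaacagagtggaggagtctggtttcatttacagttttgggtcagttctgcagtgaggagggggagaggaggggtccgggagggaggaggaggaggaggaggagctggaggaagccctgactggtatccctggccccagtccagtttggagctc

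Among the fibrillar collagens, 3 of the 6 tested chains were higher in the mean of both hairpins, 1 was lower and 2 did not pass, all at low levels. Of all tested genes, 29.2% were higher and 27.7% lower. With both hairpins 2 of the 6 were higher and 1 lower, beside 23.8% and 20.8% of all genes. COL5A3, 1 of the 3 higher chains, passed the count filter through the knockdown libraries alone. COL1A1, the main chain of the collagen of skin, tendon and bone, whose partner COL1A2 is not analysed here, had 13.4, 15.0 and 14.0 CPM in the shCHAF1B-1 libraries, 12.6, 15.2 and 12.3 CPM in the shCHAF1B-2 libraries and 7.78, 7.78 and 7.51 CPM in the shGFP libraries. Its log2 fold change was 0.88 (SE 0.0932, adjusted p = 3.16e-06) with shCHAF1B-1 and 0.80 (SE 0.0942, adjusted p = 9.64e-06) with shCHAF1B-2. COL2A1, the cartilage fibril chain, had 4.55, 5.64 and 4.53 CPM in the shCHAF1B-1 libraries, 4.08, 4.43 and 4.79 CPM in the shCHAF1B-2 libraries and 1.35, 1.40 and 1.40 CPM in the shGFP libraries, a log2 fold change of 1.83 (SE 0.143, adjusted p = 1.69e-07) with shCHAF1B-1 and 1.68 (SE 0.146, adjusted p = 5.11e-07) with shCHAF1B-2. Both rose with both hairpins and the groups did not overlap. COL27A1, a fibrillar collagen of developing cartilage, had 2.40, 2.37 and 2.05 CPM in the shCHAF1B-1 libraries, 1.83, 1.88 and 1.39 CPM in the shCHAF1B-2 libraries and 3.43, 3.26 and 3.23 CPM in the shGFP libraries. It fell, by a log2 fold change of -0.54 (SE 0.146, adjusted p = 0.007) with shCHAF1B-1 and -0.95 (SE 0.154, adjusted p = 0.000153) with shCHAF1B-2, with all knockdown libraries below all shGFP libraries.

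The collagen V chains differed from these. COL5A2, which joins fibrils and limits their width, had 9.27, 9.14 and 9.46 CPM in the shCHAF1B-1 libraries, 9.65, 10.2 and 9.33 CPM in the shCHAF1B-2 libraries and 9.44, 9.10 and 9.61 CPM in the shGFP libraries. The log2 fold change of -0.02 (SE 0.0774, adjusted p = 0.888) with shCHAF1B-1 and 0.05 (SE 0.0777, adjusted p = 0.591) with shCHAF1B-2 did not pass, and its 95% interval in the mean contrast was -0.13 to 0.16. COL5A3, a minor chain of the same type, had 28, 44 and 27 counts in the shCHAF1B-1 libraries, 17, 27 and 21 counts in the shCHAF1B-2 libraries and 14, 21 and 6 counts in the shGFP libraries. It passed with shCHAF1B-1 at 1.27 (SE 0.331, adjusted p = 0.00523) and not with shCHAF1B-2 at 0.82 (SE 0.352, adjusted p = 0.0668), and the groups overlapped. In the mean of both hairpins it passed at 1.05 (adjusted p = 0.00911). The shCHAF1B-2 value passed without shGFP replicate 2 (1.25, adjusted p = 0.0161) and with limma-voom (0.97, adjusted p = 0.0462). COL5A3 passed the count filter through the knockdown libraries alone, where it is higher. Its inclusion thus depended on the difference itself, and its p-values are descriptions, not support for a rise. COL11A2, a cartilage chain, did not pass, at 0.14 and -0.06 (adjusted p = 0.747 and 0.912). COL5A1, COL11A1 and COL24A1 had 0 to 4 counts per library.

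The other collagens include the short-chain and fibril-associated types, and here falls stood beside a rise. COL8A1 (GRCh38 chromosome 3, 99638475 to 99799226, plus strand), a short-chain collagen of vessel walls and the cornea, had 24.8, 24.7 and 24.2 CPM in the shCHAF1B-1 libraries, 27.6, 27.5 and 26.8 CPM in the shCHAF1B-2 libraries and 65.2, 65.3 and 64.9 CPM in the shGFP libraries. Its log2 fold change was -1.41 (SE 0.0468, adjusted p = 3.67e-11) with shCHAF1B-1 and -1.26 (SE 0.0467, adjusted p = 1.26e-10) with shCHAF1B-2, a fall to 0.377 and 0.419 of the shGFP level. COL12A1, a fibril-associated collagen of stretched tissue, had 35.9, 38.6 and 39.8 CPM in the shCHAF1B-1 libraries, 36.1, 44.4 and 32.9 CPM in the shCHAF1B-2 libraries and 60.8, 59.3 and 56.7 CPM in the shGFP libraries. It fell by a log2 fold change of -0.63 (SE 0.0861, adjusted p = 3.47e-05) with shCHAF1B-1 and -0.64 (SE 0.0866, adjusted p = 3.35e-05) with shCHAF1B-2, and for both genes all knockdown libraries lay below all shGFP libraries. COL16A1 (GRCh38 chromosome 1, 31652247 to 31704319, minus strand), a fibril-associated collagen that also occurs beside basement membranes, had 67.0, 64.8 and 61.3 CPM in the shCHAF1B-1 libraries, 61.1, 62.6 and 50.6 CPM in the shCHAF1B-2 libraries and 17.2, 17.9 and 19.7 CPM in the shGFP libraries. The log2 fold change was 1.82 (SE 0.0820, adjusted p = 7.79e-10) with shCHAF1B-1 and 1.67 (SE 0.0825, adjusted p = 2.02e-09) with shCHAF1B-2, a rise with no overlap. An antisense gene, AC114488.2, shares 117 of its exonic bases and had 3 to 15 counts per library.

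The order of the abundant chains therefore changed. Per length, COL8A1 was of rank 9 in the knockdown libraries, at 4.54 RPKM, and of rank 5 in the shGFP libraries, at 11.4 RPKM. COL16A1 took rank 5 with knockdown, at 10.7 RPKM, and was of rank 9 with shGFP, at 3.18 RPKM. COL17A1, COL4A5, COL4A6 and COL4A2 held ranks 1 to 4 in both. With the union of all annotated exons as the length, COL4A2 was of rank 4 with knockdown and 5 with shGFP, and COL8A1 of rank 9 with knockdown and 4 with shGFP.

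Low chains of this class gave little. COL9A2, a cartilage fibril-associated chain, had 12, 17 and 16 counts in the shCHAF1B-1 libraries, 5, 12 and 5 counts in the shCHAF1B-2 libraries and 17, 20 and 15 counts in the shGFP libraries. It passed with shCHAF1B-2 at -1.06 (adjusted p = 0.0183) and not with shCHAF1B-1 at -0.19 (adjusted p = 0.626), with overlapping counts. The shCHAF1B-2 call was lost without shCHAF1B-2 replicate 1 or 3 or shGFP replicate 2 (adjusted p between 0.0637 and 0.0773) and with DESeq2 (0.0759), while the mean contrast (-0.63, adjusted p = 0.0639) passed without shCHAF1B-2 replicate 2 (-0.88, adjusted p = 0.0129), with limma-voom (-0.64, adjusted p = 0.0489) and under the library total alone (-0.71, adjusted p = 0.0388). Neither COL9A3 nor COL14A1 was tested. COL9A3 had 6, 2 and 20 counts in the shCHAF1B-1 libraries, 2, 4 and 3 counts in the shCHAF1B-2 libraries and 3, 1 and 0 counts in the shGFP libraries, and COL14A1 had 0, 0 and 7 counts in the shCHAF1B-1 libraries, 1, 0 and 0 counts in the shCHAF1B-2 libraries and 1, 0 and 0 counts in the shGFP libraries. In both the highest count was that of shCHAF1B-1 replicate 3, the library with B lymphocyte transcripts. COL8A2, COL21A1, COL26A1 and COL28A1 had 0 to 7 counts per library, at or near the floor of 3 counts.

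**Figure D4:**
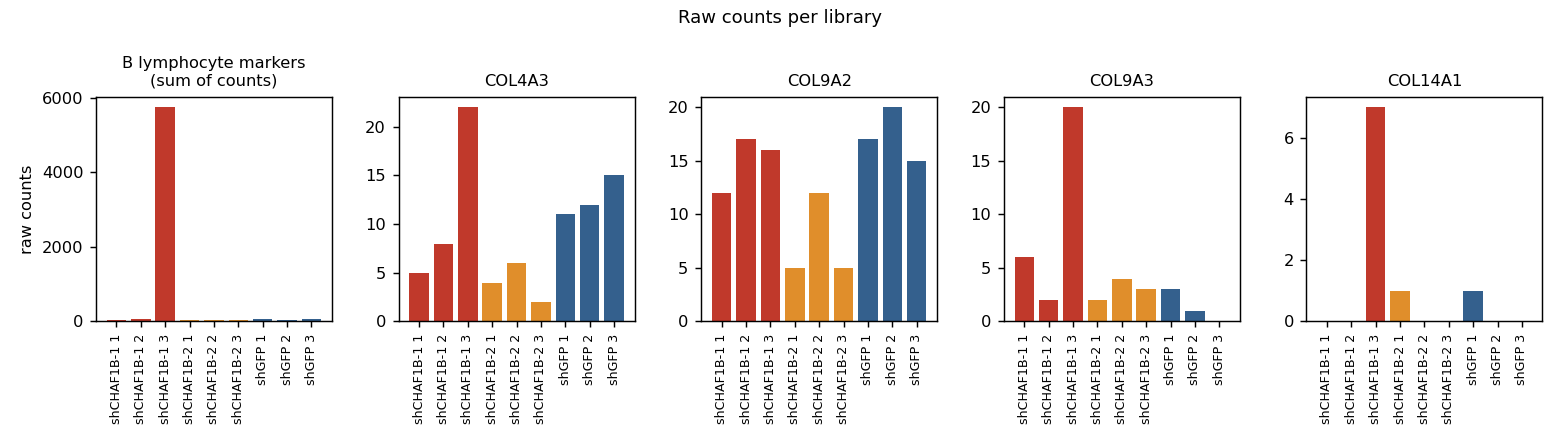
Raw counts per library (linear axes that start at 0 and differ between panels) of the summed B lymphocyte markers and of 4 collagen chains with few counts; bars are single libraries. In shCHAF1B-1 replicate 3 the markers reach 5737 counts, against 39 to 75 in the other libraries, and COL4A3, COL9A3 and COL14A1 have their highest counts, at 22, 20 and 7, while COL9A2 does not.

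The CHAF1B hairpins were also compared with each other. No collagen chain passed for shCHAF1B-2 minus shCHAF1B-1 (0 of 22, beside 0% of all 16235 genes, edgeR quasi-likelihood test), and none did with DESeq2 or limma-voom. At an unadjusted p under 0.05 there were 6 of 22 chains, beside 1800 of all 16235 genes, and the smallest adjusted p was 0.423. COL18A1 (-0.37, 95% interval -0.61 to -0.13) and COL27A1 (-0.42, -0.76 to -0.07), COL6A1 (-0.30, -0.57 to -0.03), COL4A3 (-1.38, -2.65 to -0.11) and COL9A2 (-0.88, -1.63 to -0.12) were lower with shCHAF1B-2 in value, and COL8A1 (0.15, 0.05 to 0.26) was higher. Without shCHAF1B-1 replicate 3 the COL4A3 difference was -0.50. Over the 22 chains the 95% intervals ran from -2.65 to 0.54, and the median interval reached 0.20 to either side on the log2 scale, so the test does not show that the hairpins act alike.

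Genes that make, process, bind and remove collagen were described from 5 lists, of which 61 genes were tested and 38 were higher and 8 lower in the mean of both hairpins, beside 29.2% and 27.7% of all genes. Of these 61 genes, 5 reached the minimum count in enough libraries on 1 side of the comparison only (MMP9, MMP1, MMP13 and TNXB with knockdown, NID1 with shGFP), and of the other 56, 35 were higher and 7 lower. Of 22 genes of collagen synthesis in the endoplasmic reticulum, 12 were higher and 3 lower, and the median log2 fold change was 0.15. With both hairpins 9 of these 22 were higher and 3 lower, beside 23.8% and 20.8% of all genes. PLOD2, a lysyl hydroxylase whose marks direct crosslinking, averaged 499 and 534 CPM with the CHAF1B hairpins against 231 CPM with shGFP (1.16, adjusted p = 7.16e-11). P4HA2, a subunit of prolyl hydroxylase, averaged 118 and 115 CPM with the CHAF1B hairpins against 51.4 CPM with shGFP (1.182, adjusted p = 1.37e-10). The 3 lower genes were FKBP7, a prolyl isomerase (-1.29, adjusted p = 3.62e-08), CRTAP, which acts in prolyl hydroxylation of collagen I (-0.45, adjusted p = 5.21e-07), and SERPINH1, the collagen chaperone HSP47 (-0.24, adjusted p = 0.00553).

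Of 12 genes of propeptide cleavage and crosslinking, 7 were higher and 1 lower in the mean of both hairpins (median 0.44), beside 29.2% and 27.7% of all genes. With both hairpins 5 were higher and 1 lower, beside 23.8% and 20.8% of all genes. LOXL2, a lysyl oxidase that crosslinks collagen IV, averaged 161 and 147 CPM with the CHAF1B hairpins against 24.5 CPM with shGFP (2.65, adjusted p = 1.29e-12). BMP1, which removes the ends of procollagen, averaged 115 and 102 CPM with the CHAF1B hairpins against 58.3 CPM with shGFP (0.90, adjusted p = 6.2e-09), and TGM2, a transglutaminase, 27.7 and 25.9 CPM with the CHAF1B hairpins against 9.35 CPM with shGFP (1.52, adjusted p = 1.18e-08). PXDN, the peroxidase that forms the sulfilimine bonds of collagen IV, was higher too (0.80, adjusted p = 1.81e-08). LOX, the founding lysyl oxidase, was the 1 lower gene (-0.63, adjusted p = 7.44e-06).

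Collagen receptors gave 5 higher genes and 1 lower of 7 tested (median 0.71), beside 29.2% and 27.7% of all genes. ITGA2, the alpha chain of a collagen-binding integrin, averaged 432 and 427 CPM with the CHAF1B hairpins against 139 CPM with shGFP (1.62, adjusted p = 4.25e-11). ITGA1, the alpha chain of another, averaged 15.9 and 17.6 CPM with the CHAF1B hairpins against 38.9 CPM with shGFP (-1.21, adjusted p = 9.55e-11). These 2 alpha chains, which pair with the same beta chain ITGB1 (0.71, adjusted p = 6.46e-09), thus went in opposite directions. MRC2, an endocytic receptor for collagen fragments, was higher (1.68, adjusted p = 1.63e-09), as were ITGA10 (0.84, adjusted p = 8.55e-06) and DDR1 (0.29, adjusted p = 0.000191), while DDR2 did not pass (-0.12, adjusted p = 0.544).

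Of 10 collagen-degrading enzymes, 9 were higher (median 0.72), beside 29.2% of all genes. PEPD, a peptidase for proline-ended dipeptides, did not pass (0.03, adjusted p = 0.772). MMP9, MMP1 and MMP13, which are 3 of the 9, passed the count filter through the knockdown libraries alone, where they are high, so their inclusion depended on the difference itself and no p-value is given for them. Of the other 7 enzymes, 6 were higher (median 0.61), and FAP, 1 of these, is also on the fibroblast list. MMP9, a gelatinase that also cuts collagen IV, had 248 to 395 counts in the knockdown libraries, against 1, 2 and 1 in the shGFP libraries. MMP1, a collagenase, had 75 to 110 counts in the knockdown libraries, against 2, 1 and 4 in the shGFP libraries, and MMP13, another collagenase, had 10 to 24 counts in the knockdown libraries, against 3, 3 and 5 in the shGFP libraries. MMP2, another gelatinase, averaged 4.96 and 4.92 CPM with the CHAF1B hairpins against 0.608 CPM with shGFP (3.01, adjusted p = 8.08e-10), and MMP14, the membrane enzyme that activates it, 244 and 226 CPM with the CHAF1B hairpins against 148 CPM with shGFP (0.67, adjusted p = 1.46e-07).

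Of 10 tested genes on the list of collagen-binding matrix proteins, 5 were higher and 3 lower (median 0.30), beside 29.2% and 27.7% of all genes. With both hairpins 3 were higher and 3 lower. NID1 and TNXB passed the count filter through 1 side only, and of the other 8 genes 5 were higher and 2 lower. SPARC, a collagen chaperone of the matrix, averaged 114 and 112 CPM with the CHAF1B hairpins against 29.5 CPM with shGFP (1.94, adjusted p = 3.06e-12), and FN1 (fibronectin) and TGFBI were higher (1.14, adjusted p = 2.9e-09, and 0.69, adjusted p = 8.91e-09). The other 2 higher genes were THBS1, the thrombospondin-1 gene (0.13, adjusted p = 0.0153), and HSPG2, that of the basement membrane proteoglycan perlecan (0.29, adjusted p = 0.0382). Neither passed with shCHAF1B-2 alone (adjusted p = 0.226 and 0.178). DCN, the proteoglycan decorin that coats fibrils, averaged 1.65 and 1.94 CPM with the CHAF1B hairpins against 9.38 CPM with shGFP (-2.38, adjusted p = 2.95e-10). DST was lower too (-0.39, adjusted p = 0.000288), and its product is an intracellular plakin of hemidesmosomes rather than a matrix protein. NID1, the linker nidogen of basement membranes and the remaining lower gene, had 1 to 4 counts in the knockdown libraries, against 11, 12 and 11 in the shGFP libraries. It passed the count filter through the shGFP libraries alone, so no p-value is given for it.

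**Figure D5:**
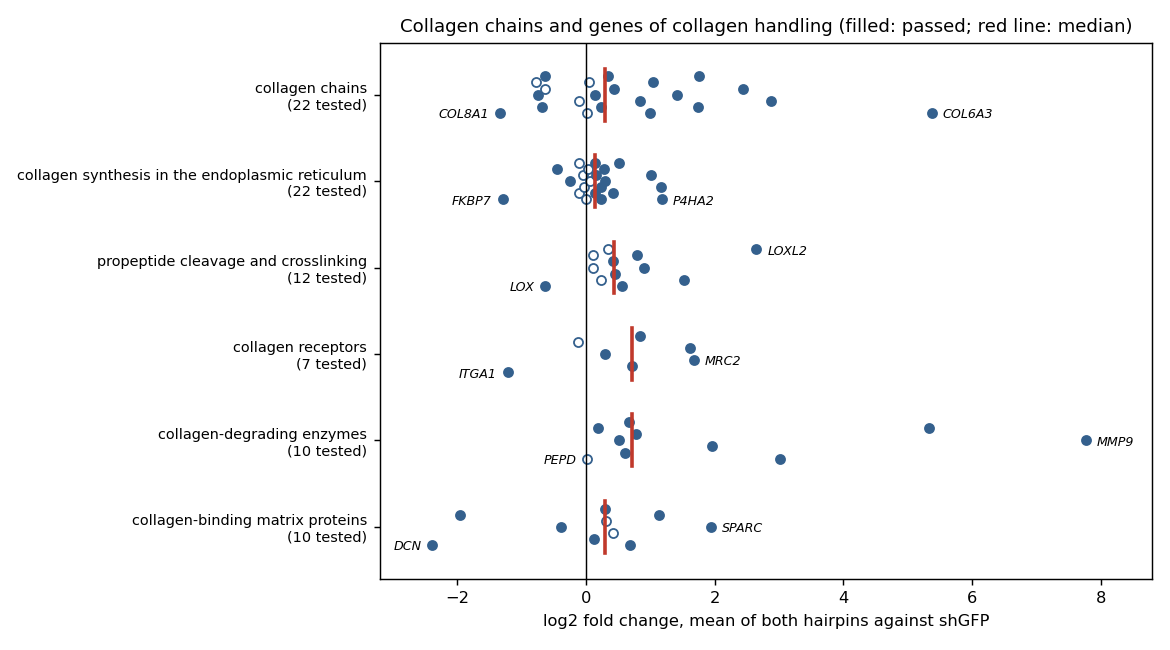
Log2 fold change, mean of both hairpins against shGFP, of the tested collagen chains and of the tested genes in 5 lists of collagen handling; each point is a gene, filled where it passed at an adjusted p under 0.05, the red line is the median, and the lowest and highest gene of each list are named. The medians are 0.29 for the chains and between 0.15 and 0.72 for the lists, and the degrading enzymes have no gene that passed below 0.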

How the data were processed

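Libraries were TruSeq RNA v2 preparations of polyadenylated RNA, which do not mark strand, per the labels' protocols. The authors deposited raw counts per gene and library, whole numbers that were not normalized, and these counts were the only values used. Per the submitters' processing notes, the tools were DESeq2 1.18.1, HTSeq 0.8.0 and STAR 2.5.3a, and the builds mm10 and hg38; their roles are not given. No row totals fewer than 7 counts. Groups follow the hairpin in the labels. Symbols and positions came from GENCODE release 29 (26149 of 26186 identifiers matched).

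Genes were filtered with filterByExpr (minimum count 10, minimum total 15, proportion 0.7), leaving 16235, scaled with TMM and tested with edgeR 4.0.16 (quasi-likelihood; R 4.3.3). The 9 libraries entered a single model, with 1 estimate of the spread for all groups. P-values were adjusted by Benjamini-Hochberg over all 16235 genes. RPKM divides CPM by the length of the GENCODE principal transcript. Upstream sequence came from RefSeq (GRCh38.p14). Both comparisons with shGFP share the same shGFP libraries. The steps were tested on simulated data. No 2 libraries of a group agreed within sampling noise.

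The members, gene lists and tests were chosen with earlier results of these data known. Chains called with both hairpins, or with a mean of at least 5 CPM, were given in every library. The other tested chains were given by value and call, and untested chains by their counts. Up to 4 genes per list with the smallest adjusted p were named, plus those needed for counts of 5 or fewer. Beyond this rule, list genes in the text were named after their values were seen. Alternatives were RLE, upper-quartile and library-total scaling, DESeq2 1.42.0, limma-voom (limma 3.58.1), other filters and thresholds, only the groups compared, a replicate block and leaving out each library. Figures used matplotlib 3.10.9.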

Additional observations from a re-analysis of the deposited data

How the results depend on the processing

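All counts of chains and of list genes that passed stayed within 1.5 times of the value given in the report under every other setting tried except a required change of at least 2-fold. With that requirement 8 chains were higher and 1 lower with shCHAF1B-1, 6 and 3 with shCHAF1B-2, 7 and 1 in the mean of both, and 6 and 1 with both hairpins, and 13 list genes were higher and 4 lower. The share of all tested genes that met this requirement was not computed, so these counts have no background beside them and are descriptions. They include genes that passed the count filter through 1 side only. These are COL5A3 (higher with shCHAF1B-1 and in the mean), COL4A3 (lower with shCHAF1B-2), and MMP9, MMP1, MMP13 and NID1 of the lists. When 1 library was left out at a time, shCHAF1B-1 gave 12 to 13 chains higher and 3 to 4 lower, shCHAF1B-2 gave 11 to 12 and 4 to 6, the mean of both 12 to 13 and 4 to 5, both hairpins together 11 to 12 and 3 to 4, and the lists 34 to 39 higher and 8 lower, with 0 chains between hairpins. Of the 16486 to 16630 genes tested in these fits, 4064 to 4749 were higher and 3520 to 4293 lower with shCHAF1B-1. The ranges were 3812 to 4391 and 3469 to 4053 with shCHAF1B-2, and 4241 to 4900 and 3970 to 4577 in the mean. Without shCHAF1B-1 replicate 3, the library with B lymphocyte transcripts, 13 chains were higher and 4 lower with shCHAF1B-1, 11 and 6 with shCHAF1B-2, and 13 and 5 in the mean of both. Of all 16544 tested genes, 4257 were higher and 3745 lower with shCHAF1B-1, 4372 and 4017 with shCHAF1B-2, and 4704 and 4427 in the mean. The added lower chain in the mean is COL4A3, which passed the count filter through the shGFP libraries alone. For single chains over the 4 contrasts, 769 values kept their side of the threshold when a library was left out, 19 lost it and 4 gained it. Under the other settings 740 kept it, 9 lost it and 8 gained it. No chain that passed changed sign. The changes concern COL4A1, COL4A2, COL4A3, COL4A4, COL5A3 and COL9A2, described above, and their cause was not tested.

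No pairing of libraries by replicate number was seen. Same-numbered libraries of different groups correlated in their deviations between -0.14 and 0.10, and 1 of 9 pairs was over 0.1. Differently numbered libraries correlated between -0.22 and 0.22, and 5 of 18 pairs were over 0.1. With 3 libraries per group these values cannot show that pairing was absent. With the replicate number as a block, 12 chains were higher with shCHAF1B-2 and 12 with both hairpins (COL5A3 passed with shCHAF1B-2 at 0.84, adjusted p = 0.0487), and 37 list genes were higher and 8 lower. Of all 16235 genes in that fit, 4182 were higher with shCHAF1B-2, and 4599 were higher and 4314 lower in the mean of both. No count over all genes was made for both hairpins together under these other settings. The mean of both hairpins could not be fitted with only the groups compared. Chains under about 3 counts per library lie below what this depth can compare.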
